A study of Mus musculus with 12 samples.

Results

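The proteasome genes described here are the 50 protein-coding mouse genes whose symbol begins with Psma to Psmg and a digit, out of 55401 genes in the count table. They lie on 16 chromosomes. The rule took the symbol alone and used no measured value. It left out 4 annotated pseudogenes with matching symbols and took in Psmc3ip, which encodes a meiotic recombination protein that binds Psmc3 and is no proteasome subunit. By role the members are 7 alpha and 7 constitutive beta subunits of the 20S core, 3 immunoproteasome subunits, 2 core subunits of restricted tissues, 6 ATPase and 11 non-ATPase subunits of the 19S cap, 5 activator genes, 1 inhibitor, 4 chaperones of 20S assembly and 3 of 19S assembly, besides Psmc3ip.

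The proteasome is the barrel-shaped protease that degrades proteins tagged with ubiquitin. Its 20S core is built of alpha rings, which form the gate, and beta rings, in which Psmb5, Psmb6 and Psmb7 are the catalytic subunits. The 19S cap recognises, unfolds and feeds in ubiquitinated substrates. In lymphocytes, and in other cells exposed to interferon, Psmb8, Psmb9 and Psmb10 take the places of Psmb5, Psmb6 and Psmb7 and form the immunoproteasome, which favours peptides for presentation on class I MHC. Th17 cells are helper T cells defined by their IL-17.

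The cells were wild-type mouse T cells from lymph nodes, naive at the start, that had been differentiated to Th17. They were given Kira8, Stattic, both (Kira8+Stattic) or no inhibitor (None), with 3 libraries per group and 4 h of treatment. Kira8 inhibits IRE1alpha, a sensor of endoplasmic reticulum stress, and Stattic inhibits the transcription factor STAT3. Whether None received solvent is not stated, nor whether the replicates are separate cultures, so that p-values cover only the spread among these libraries, part or all of which could be technical.

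Depth was 51.7 to 85.9 M (megacounts) in 10 libraries, 19.8 M in Kira8 replicate 2 and 9.28 M in Stattic replicate 2. These last libraries stood apart: mitochondrial genes took 61.5% and 10.7% of their counts against 3.38% to 5.22% elsewhere. The gene Gm10800 took 2.91% and 19.1% of their counts against 0.00126% to 0.00826%. The values below are therefore from the 10 other libraries, with 2 libraries each for Kira8 and Stattic and 3 each for Kira8+Stattic and None. The proteasome genes took 0.0288% and 0.199% of the counts in the libraries left out, against 0.404% to 0.656%, which was no ground for the choice. With all 12 libraries, edgeR's quasi-likelihood test called 0 of the 50 members in each of the 6 comparisons, and 0 to 2 members had an unadjusted p under 0.05. There the common dispersion was 1.01, against 0.143 in the 10 libraries, and 0.31% of all genes tested were called for Stattic against None, 0.272% for Kira8+Stattic against None and 0% in the other comparisons. Limma voom with library quality weights on the 12 libraries called 1 member higher and 11 lower in Kira8, 2 and 13 in Stattic and 2 and 18 in Kira8+Stattic, each against None. Of all 20993 genes tested, it called 2239 higher and 2433 lower in Kira8, 4135 and 3643 in Stattic and 5230 and 4729 in Kira8+Stattic. Markers of T and Th17 cells were detected in every group, with summed levels of 1674 to 1789 CPM (counts per megacount of library) in Kira8, 1944 to 2122 CPM in Stattic, 1930 to 2040 CPM in Kira8+Stattic and 1957 to 4086 CPM in None. Of these 12 markers 4 were called lower and 1 higher in Kira8, 6 and 3 in Stattic and 7 and 2 in Kira8+Stattic, each against None, Il17a and Il17f among the lower in all 3. Among genes with a mean of at least 5 CPM, the level of most of these markers, 16.4% were called lower and 16.2% higher in Kira8. The shares were 32.1% and 23.4% in Stattic and 33.8% and 24.1% in Kira8+Stattic. In bulk RNA, fewer cells of a type and less RNA per cell cannot be told apart.

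The upstream sequences of 4 members with different patterns are shown, because Psme3 fell in all 3 treated groups, Psmd11 fell in both groups with Stattic, Psmb10 was the immunoproteasome gene called lower in all 3 groups, and Psmb5, which Psmb8 replaces, was called in none. They are the bases before the RefSeq gene start (GRCm38.p6), with bases inside annotated exons left out, at chr11:101315963-101316212 (plus strand) for Psme3, chr11:80428365-80428614 (plus) for Psmd11, chr14:54618023-54618245 (minus) for Psmb5 and chr8:105938445-105938642 (minus) for Psmb10. Capitals mark matches to any of 4 motifs searched on both strands: TGANNNNGC, the core of the antioxidant response element that NFE2L1 and NFE2L2 bind, the interferon response motif (a pair of TTTC runs with 2 bases between them), GAANNTTC of heat shock elements, and CCAAT.
Psme3: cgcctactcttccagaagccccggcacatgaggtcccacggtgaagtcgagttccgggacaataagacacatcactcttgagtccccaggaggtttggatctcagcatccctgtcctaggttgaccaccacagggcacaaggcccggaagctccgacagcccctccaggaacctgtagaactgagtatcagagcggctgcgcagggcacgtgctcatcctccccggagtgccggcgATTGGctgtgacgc
Psmd11: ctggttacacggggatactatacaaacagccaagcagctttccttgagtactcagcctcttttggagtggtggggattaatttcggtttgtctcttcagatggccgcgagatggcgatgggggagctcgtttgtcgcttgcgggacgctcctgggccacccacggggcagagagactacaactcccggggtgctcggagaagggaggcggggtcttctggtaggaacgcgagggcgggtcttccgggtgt
Psmb5: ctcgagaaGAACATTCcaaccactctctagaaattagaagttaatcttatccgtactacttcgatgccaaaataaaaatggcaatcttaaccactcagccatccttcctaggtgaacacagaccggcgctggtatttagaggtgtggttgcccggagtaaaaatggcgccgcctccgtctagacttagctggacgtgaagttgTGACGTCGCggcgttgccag
Psmb10: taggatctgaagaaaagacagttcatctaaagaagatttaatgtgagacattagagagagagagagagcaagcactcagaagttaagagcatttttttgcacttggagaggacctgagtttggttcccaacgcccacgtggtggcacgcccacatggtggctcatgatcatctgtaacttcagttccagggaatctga
The capitals are a CCAAT on the minus strand in Psme3, and a GAANNTTC and a TGANNNNGC match in Psmb5 that do not overlap. Psmd11 and Psmb10 hold no match in the window. Over the 250 bases before the start, 42 of the 50 members had a RefSeq entry and were searched beside 17492 protein-coding genes. TGANNNNGC was present in 35.7% of these members against 35.2% of all genes, CCAAT in 35.7% against 36.3%, GAANNTTC in 7.14% against 6.32% and the interferon response motif in 7.14% against 3.02%. The last share is 3 members, Psmb3, Psmd4 and Psmd9, none of them an immunoproteasome gene. A match is a description of the letters and not evidence of binding.

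All 50 members passed the filter on low counts, and 48 had a mean of at least 5 CPM after TMM scaling. That is the scale of the levels below, except for sums of cell markers and of Psme2 with Psme2b, which are CPM of all counts. The exceptions were the core subunits of restricted tissues, Psma8 of the testis and Psmb11 of the thymic cortex. Per kilobase of transcript, mean levels in None ran from 6.65 CPM for Psmc3ip and 7.09 CPM for the 19S chaperone Psmd9 to 210 CPM for Psme1 among those 48 genes. The catalytic subunits lay close together in None, at 88.6 ± 9.39 CPM per kilobase for Psmb7, 89.5 ± 15.5 for Psmb5 and 91.9 ± 17.1 for Psmb6 (SD, n = 3), a spacing well inside their spread. Psmb10 at 47.2 ± 9.44 and Psmb9 at 72.3 ± 10.6 CPM per kilobase lay under them and Psmb8 at 138 ± 20.3 above them.

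At a threshold of 0.05 on the Benjamini-Hochberg adjusted p, taken over 21239 tested genes, edgeR's quasi-likelihood test called 1 member higher and 9 lower in Kira8 against None, 2 higher and 16 lower in Stattic against None, and 1 higher and 18 lower in Kira8+Stattic against None. Among all genes tested the shares called were 9.7% higher and 9.59% lower in Kira8, 20.1% and 18.9% in Stattic, and 20.8% and 20% in Kira8+Stattic. Among the 10348 genes with at least 5 CPM, the level of nearly all members, they were 16.2% and 16.4%, 23.4% and 32.1%, and 24.1% and 33.8%. The members' counts of lower genes are therefore near the background of genes of like level, and their counts of higher genes lie under it. The members' median log2 changes were -0.16, -0.30 and -0.27, beside 0.00, 0.08 and 0.09 for all genes and 0.00, -0.13 and -0.13 for genes of at least 5 CPM. Scaling by library size alone moved the median of all genes to -0.08 in Stattic and -0.06 in Kira8+Stattic, and group medians are best read against it. All 3 comparisons share the None libraries. Besides the 0 calls with all 12 libraries, the counts of lower genes moved by over 1.5 times without some single libraries, to 3 in Kira8 without Kira8 replicate 1 or replicate 3, 7 in Stattic without Stattic replicate 3, and 11 in Kira8+Stattic without Kira8+Stattic replicate 2. Of 62 called changes of members over the 6 comparisons, 22 were called in every fit that left out a library. The plot of changes by group shows how they were spread over the roles.

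**Figure D1:**
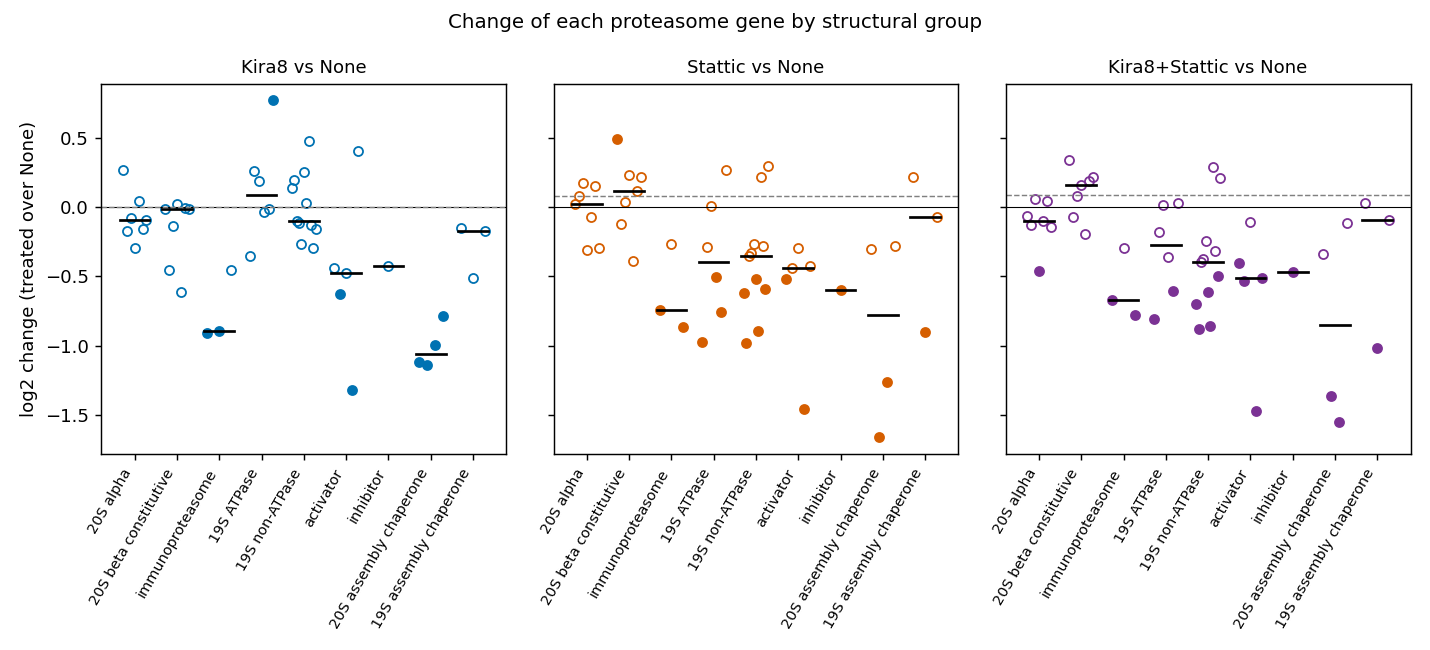
Log2 change over None (vertical axis) of each proteasome gene, by structural group, for Kira8, Stattic and Kira8+Stattic in 10 libraries; filled points passed an adjusted p of 0.05, open points did not, black bars are group medians and the dashed line is the median of all genes. Psma8, Psmb11 and Psmc3ip are not drawn. The medians of the constitutive 20S subunits lie near 0, while the lowest points are Psme3 (-1.32, -1.46 and -1.47) and some of the 20S assembly chaperones.

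Few genes of the constitutive 20S core passed the test. Among all genes of at least 5 CPM, 16.2% were called higher and 16.4% lower in Kira8. The shares were 23.4% and 32.1% in Stattic and 24.1% and 33.8% in Kira8+Stattic. In Kira8 edgeR called 0 of 14 (median log2 change -0.09). DESeq2 called 2 lower there and limma voom 1, and 2 had an unadjusted edgeR p under 0.05. In Stattic 1 of 14 was called, Psmb1, higher (median 0.06), and in Kira8+Stattic 1 of 14, Psma4, lower (median -0.01). With library size alone those medians were -0.12, -0.11 and -0.17, so that the sign in Stattic depends on the scaling, as it does in Kira8+Stattic with RLE factors (0.01). Psmb1, a structural beta subunit, had 146 and 146 CPM in Kira8, 232 and 183 CPM in Stattic and 173, 188 and 198 CPM in Kira8+Stattic, against 169.8, 129.5 and 143 CPM in None. The groups with Stattic do not overlap with None and Kira8 does, but the call in Stattic (0.49 ± 0.17, SE; adjusted p = 0.0327, edgeR) ended without any of Kira8 replicates 1 and 3, Stattic replicate 1 (change 0.30), Kira8+Stattic replicates 1 and 2 and None replicates 2 and 3 (adjusted p = 0.0506 to 0.281), and with library size alone (adjusted p = 0.144). Psma4, an alpha ring subunit, had 152, 159 and 148 CPM in Kira8+Stattic against 195, 203 and 234 CPM in None. The groups do not overlap, and the change of -0.46 ± 0.16 (edgeR, adjusted p = 0.0386) lost its call without any of Kira8 replicates 1 and 3, any Kira8+Stattic library, or None replicate 2 or 3 (adjusted p = 0.0544 to 0.124). The alpha subunit Psma6 was flat, with 129.9, 134 and 144 CPM in Kira8+Stattic against 139.9, 132 and 125 CPM in None (0.04, 95% interval -0.25 to 0.33). Psmb2, a structural beta subunit, had 66.8, 64.0 and 77.2 CPM in Kira8+Stattic against 83.0, 72.3 and 63.5 CPM in None (-0.07, 95% interval -0.40 to 0.26).

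Among the catalytic subunits, Psmb5 carries the chymotrypsin-like, Psmb6 the caspase-like and Psmb7 the trypsin-like activity, and edgeR called 0 of the 3 in these comparisons (1 in Kira8 at an unadjusted p under 0.05, 0 in the others). Psmb5 had 51.6 and 53.7 CPM in Kira8, 73.5 and 49.5 in Stattic and 75.8, 62.3 and 73.2 in Kira8+Stattic, against 96.5, 71.0 and 74.0 CPM in None. Both Kira8 libraries were below every None library, yet the change of -0.61 ± 0.20 did not pass (95% interval -1.05 to -0.18; edgeR, adjusted p = 0.051), though DESeq2 and limma voom each called it lower. Psmb6 had 67.8 and 78.5 CPM in Kira8, 92.3 and 66.9 in Stattic and 88.4, 75.3 and 86.5 in Kira8+Stattic, against 89.0, 67.7 and 63.4 CPM in None. Psmb7 had 87.2 and 116 CPM in Kira8, 138 and 101 in Stattic and 104, 116 and 137 in Kira8+Stattic, against 111, 107 and 90.4 CPM in None. For both genes every treated group overlapped with None. Psmb7 shares 405 exon bases with Nek6, and reads there could be counted for either.

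Of the immunoproteasome genes, Psmb8 and Psmb10 fell in Kira8, and Psmb9 and Psmb10 fell in Stattic and in Kira8+Stattic. Psmb8, the counterpart of Psmb5, had 123 and 119.8 CPM in Kira8, 227 and 146 in Stattic and 199, 187 and 164 in Kira8+Stattic, against 253, 188 and 234 CPM in None. Both Kira8 libraries lay below every None library, while the other treated groups overlapped with None. The change was -0.89 ± 0.21 in Kira8 (edgeR, adjusted p = 0.01), -0.27 in Stattic (95% interval -0.71 to 0.17) and -0.30 in Kira8+Stattic (95% interval -0.69 to 0.09). Kira8+Stattic was 0.59 ± 0.20 above Kira8 (edgeR, adjusted p = 0.0443), a call lost without any of the Kira8 and Kira8+Stattic libraries or None replicate 3 (0.0537 to 0.212) and with library size alone (0.114). Psmb9, the counterpart of Psmb6, had 69.8 and 72.8 CPM in Kira8, 65.3 and 42.1 in Stattic and 59.6, 56.1 and 55.7 in Kira8+Stattic, against 112, 83.8 and 97.1 CPM in None. All treated libraries were below all None libraries. By edgeR it changed by -0.87 ± 0.20 in Stattic (adjusted p = 0.00425) and -0.77 ± 0.17 in Kira8+Stattic (adjusted p = 0.00331), while -0.46 in Kira8 did not pass (adjusted p = 0.125). Psmb10, the counterpart of Psmb7, had 33.4 and 32.5 CPM in Kira8, 46.5 and 27.6 in Stattic and 35.4, 43.0 and 38.3 in Kira8+Stattic, against 73.2, 48.7 and 63.8 CPM in None. Here too no treated library reached a None library, and the changes by edgeR were -0.91 ± 0.23 (adjusted p = 0.0167), -0.74 ± 0.23 (adjusted p = 0.024) and -0.67 ± 0.20 (adjusted p = 0.0194).

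Several of these calls rest on single libraries. In Kira8, with 2 libraries, leaving out replicate 1 or 3 ended the calls of Psmb8 (adjusted p = 0.0806 and 0.0988) and Psmb10 (0.105 and 0.127). In Stattic, leaving out replicate 3 ended those of Psmb9 (0.0583) and Psmb10 (0.245, a change of -0.41, beside -1.17 without replicate 1), and None replicates 1 and 3 each ended that of Psmb10 (0.0585 and 0.0534). In Kira8+Stattic the Psmb9 call held in every such fit, and that of Psmb10 ended without Kira8+Stattic replicate 1 or 3 or None replicate 1 or 3 (0.0506 to 0.0604). With all 12 libraries the changes in Kira8, Stattic and Kira8+Stattic were -1.47, -0.58 and -0.32 for Psmb8, -0.91, -0.43 and -0.80 for Psmb9, and -1.45, -1.15 and -0.69 for Psmb10, none called. Psmb8 (chr17:34197721-34201454, plus strand) and Psmb9 (chr17:34181987-34187764, minus strand) are neighbours in the MHC. Psmb9 shares 212 exon bases with Tap1 on the opposite strand, and whether counting used strand is not given in the sources used here. Mean Tap1 levels were 456 CPM in Kira8, 171 in Stattic, 165 in Kira8+Stattic and 445 in None. The part of Tap1 reads in the Psmb9 counts, and so in the Psmb9/Psmb6 ratio below, was not tested.

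**Figure D2:**
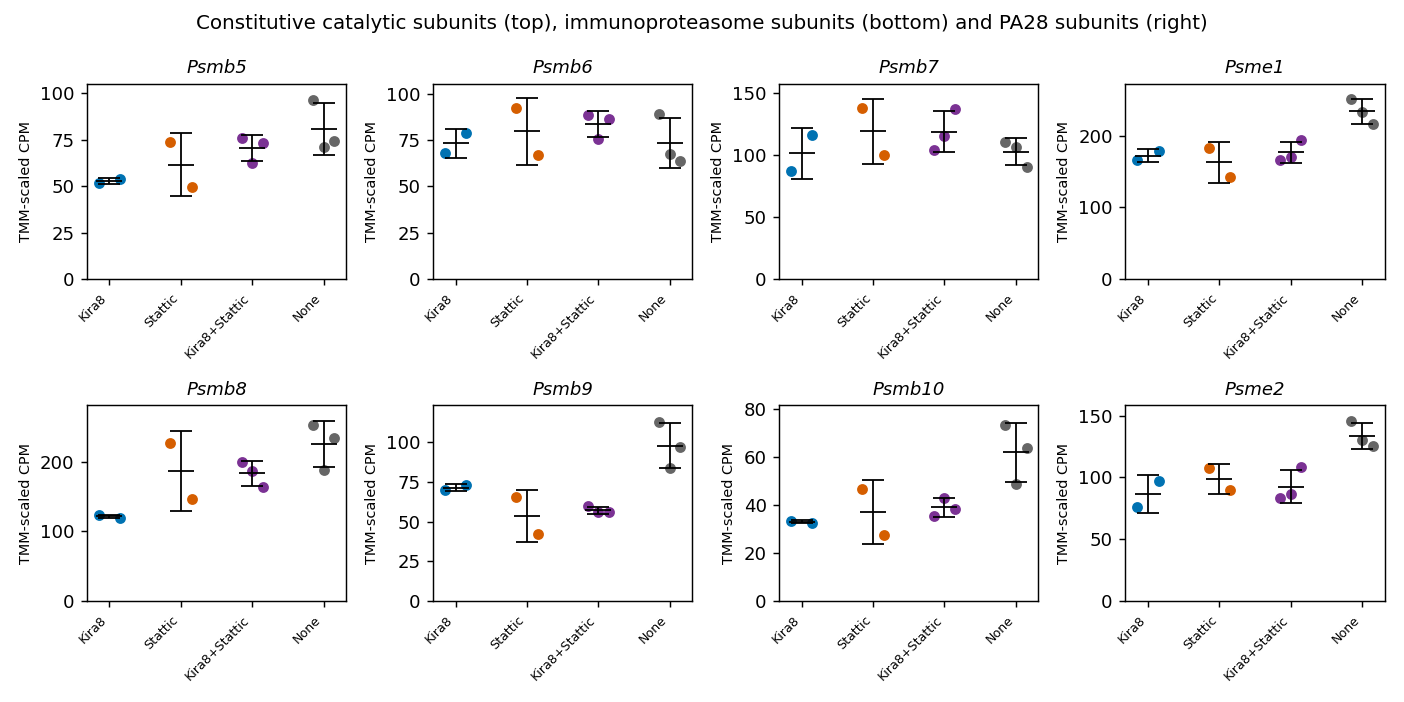
TMM-scaled CPM (vertical axis, from 0) of the constitutive catalytic subunits, the immunoproteasome subunits and the PA28 subunits in each of 10 libraries, by group, with mean and SD. Psmb9 and Psmb10 lie lower in all treated libraries than in all None libraries, while Psmb6 and Psmb7 overlap between groups.

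Summed markers of B cells and of CD8 T and NK cells, in CPM of all counts, were also lower in each treated group than in None. The 8 B cell markers summed to 53.4 to 62.3 CPM in Kira8, 16.5 to 29.8 in Stattic and 18.8 to 46.8 in Kira8+Stattic, against 156 to 183 CPM in None, and 5, 8 and 7 of them were called lower. The 8 markers of CD8 T and NK cells summed to 161 to 178 CPM in Kira8, 509 to 603 in Stattic and 177 to 306 in Kira8+Stattic, against 1152 to 1989 CPM in None; 6, 4 and 5 were called lower, and Klrb1c higher in both groups with Stattic. The 8 myeloid markers summed to 68.6 to 71.3 CPM in Kira8, 39.8 to 50.1 in Stattic and 30.6 to 108 in Kira8+Stattic, against 36.2 to 54.4 CPM in None, with Cd14 and Cd68 called higher in both groups with Stattic. No marker was at 0 throughout a group. Among all genes tested, 9.59%, 18.9% and 20% were called lower in Kira8, Stattic and Kira8+Stattic, and 9.7%, 20.1% and 20.8% higher. The part of these cells in the immunoproteasome result was not tested.

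Transcripts of the immunoproteasome subunits can be set against those of the subunits they replace inside a library, where no scaling enters; assembled particles were not measured. Counts of the 3 immunoproteasome genes over those of the 3 constitutive catalytic genes gave 1.09 and 0.907 in Kira8, 1.12 and 0.996 in Stattic and 1.10, 1.13 and 0.869 in Kira8+Stattic, against 1.48, 1.31 and 1.73 in None. All 7 treated libraries were below the 3 None libraries. The Psmb9/Psmb6 ratio was 1.03 and 0.927 in Kira8, 0.708 and 0.629 in Stattic and 0.674, 0.746 and 0.644 in Kira8+Stattic, against 1.26, 1.24 and 1.53 in None. Its mean log2 value was -0.56 ± 0.10 in the 5 libraries with Stattic and 0.24 ± 0.28 in the 5 without (SD), which do not overlap, a difference of -0.80 (two-sided exact permutation test, p = 0.00794, the smallest that 5 against 5 can give; 0.0714 after adjustment over 9 such tests). A single ratio at this smallest p could not pass the threshold once adjusted over 9 tests, so the miss was set by the design. By the same test the difference was -0.68 with all 12 libraries (adjusted p = 0.039). Without Kira8 replicate 3 it was -0.88 (adjusted p = 0.0357), an adjusted value reached only because Psmb10/Psmb7 reached it too. The Psmb10/Psmb7 ratio was 0.383 and 0.280 in Kira8, 0.337 and 0.275 in Stattic and 0.340, 0.371 and 0.279 in Kira8+Stattic, against 0.659, 0.455 and 0.706 in None, so that every treated library was lower. Split by Stattic, where Kira8 alone counts among the libraries without it, the log2 difference was -0.56 (exact permutation p = 0.0556, adjusted 0.18), and without Kira8 replicate 3 it was -0.75 (adjusted p = 0.0357). For Kira8+Stattic against None the differences were -0.96 for Psmb9/Psmb6 and -0.86 for Psmb10/Psmb7, each with an exact p of 0.1 (adjusted 0.18), the smallest that 3 against 3 libraries can give. The Psmb8/Psmb5 ratio was 2.38 and 2.23 in Kira8, 3.09 and 2.96 in Stattic and 2.63, 3.00 and 2.24 in Kira8+Stattic, against 2.62, 2.65 and 3.16 in None. These overlap, and its differences were 0.09 with against without Stattic, -0.22 with against without Kira8 and -0.11 for Kira8+Stattic against None (exact permutation p = 0.468, 0.0714 and 0.5; adjusted 0.5, 0.18 and 0.5). With against without Kira8, Psmb9/Psmb6 differed by -0.36 and Psmb10/Psmb7 by -0.48 (exact permutation p = 0.23 and 0.175, adjusted 0.296 and 0.262).

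**Figure D3:**
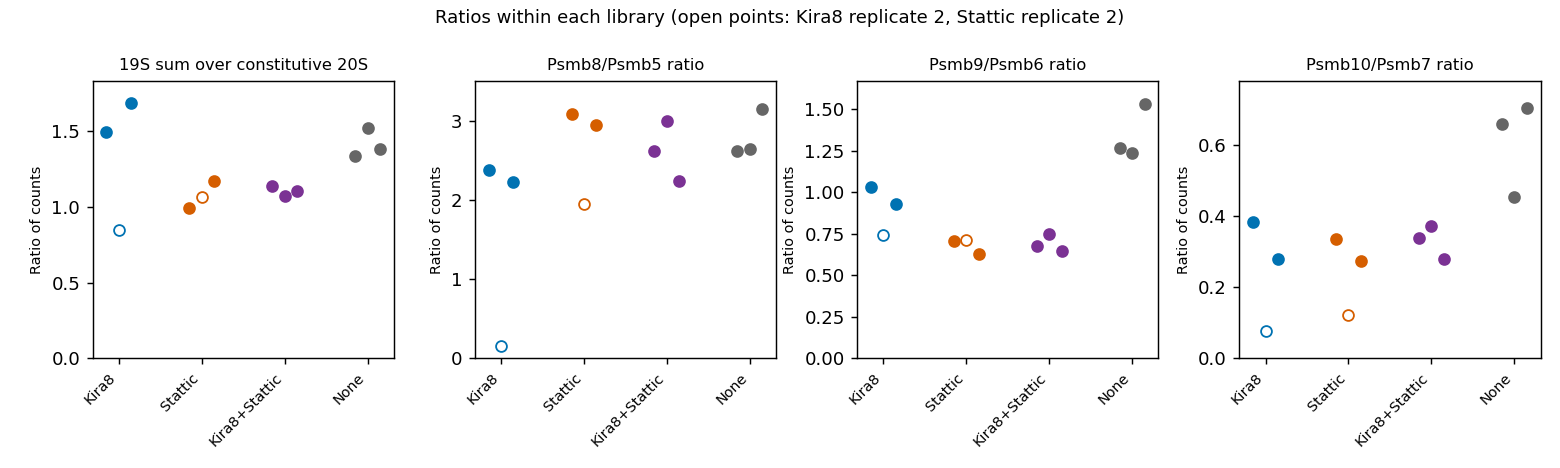
Ratios of counts within each library (vertical axis, from 0), by group: the summed 19S genes over the 14 constitutive 20S genes, and each immunoproteasome gene over the subunit it replaces; open points are Kira8 replicate 2 and Stattic replicate 2. The 19S ratio is 0.996 to 1.17 with Stattic or Kira8+Stattic and 1.33 to 1.52 in None.

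Of the 17 genes of the 19S cap, 8 were called lower in Stattic (median log2 change -0.35) and 7 in Kira8+Stattic (-0.37), and the others were not called, beside 32.1% and 33.8% called lower among genes of at least 5 CPM. In Kira8 the median was -0.02, edgeR called 1 higher and 0 lower with 2 at an unadjusted p under 0.05, and DESeq2 and limma voom each called 2 higher and 0 lower. Against Kira8, Kira8+Stattic had 6 of 17 lower (median -0.33) beside 0 of the 14 constitutive 20S genes (median 0.16; 1 at an unadjusted p under 0.05, and 0 by DESeq2 and by limma voom). The calls of Psmc5, Psmc6, Psmd1, Psmd2 and Psmd3 in Kira8+Stattic against Kira8 ended without Kira8 replicate 3 (adjusted p = 0.0632 to 0.259), and in Stattic against None those of Psmc4, Psmc5, Psmd1, Psmd2 and Psmd7 ended without Stattic replicate 3 (0.0767 to 0.3). In Kira8+Stattic against Kira8, 8 members were lower and 3 higher in all, beside 16% and 14.7% of all genes. Among genes of at least 5 CPM, the level of nearly all members and of the cap genes, 27.9% were lower and 18.6% higher. Within libraries, the summed counts of the 17 cap genes over those of the 14 core genes were 1.497 and 1.69 in Kira8, 0.996 and 1.17 in Stattic and 1.14, 1.07 and 1.10 in Kira8+Stattic, against 1.33, 1.52 and 1.38 in None. The 5 libraries with Stattic lay below the 5 without it. With library size alone, 11 of 17 were lower in Stattic and 12 in Kira8+Stattic. That scaling also called 4755 and 5033 of all 21239 genes tested lower.

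Psmd11, a subunit of the cap's lid (chr11:80428615-80473248, plus strand), had 122 and 162 CPM in Kira8, 64.7 and 61.2 in Stattic and 65.1, 67.8 and 69.2 in Kira8+Stattic, against 112, 136 and 125 CPM in None. All 5 libraries with Stattic lay between 61.2 and 69.2 CPM, below every other library. By edgeR it changed by -0.98 ± 0.16 in Stattic (adjusted p = 0.00058), by -0.88 ± 0.14 in Kira8+Stattic (adjusted p = 0.000396) and by -1.08 ± 0.16 in Kira8+Stattic against Kira8 (adjusted p = 0.00039), and each call held whichever library was left out. Psmd3, another lid subunit, had 153 and 222 CPM in Kira8, 113 and 84.9 in Stattic and 109, 98.7 and 96.98 in Kira8+Stattic, against 194, 167 and 191 CPM in None (edgeR, -0.90 ± 0.19 in Stattic, adjusted p = 0.00316; -0.86 ± 0.17 in Kira8+Stattic, adjusted p = 0.00158). Psmd1 and Psmd2, the large scaffold subunits of the base, changed by -0.70 ± 0.18 and -0.62 ± 0.16 in Kira8+Stattic (edgeR, adjusted p = 0.00955 and 0.00738). These calls of Psmd3, Psmd1 and Psmd2 also held in every fit without a library. Psmd8, a lid subunit, changed least among the non-ATPase subunits in Kira8+Stattic, with 181, 178 and 192 CPM in Kira8+Stattic against 175, 155 and 149 CPM in None (0.21, not called).

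Among the 6 ATPases that form the unfolding ring, Psmc1 had 95.3 and 130.3 CPM in Kira8, 85.5 and 61.7 in Stattic and 97.4, 70.2 and 79.8 in Kira8+Stattic, against 152, 148 and 133 CPM in None. Every treated library was below every None library. The edgeR changes were -0.97 ± 0.21 in Stattic (adjusted p = 0.00297) and -0.81 ± 0.18 in Kira8+Stattic (adjusted p = 0.00352), and both held without any library. Psmc5 had 81.9 and 66.8 CPM in Stattic and 90.1, 72.4 and 85.3 in Kira8+Stattic, against 142, 126 and 109 CPM in None. Its calls (edgeR, -0.75 ± 0.18, adjusted p = 0.00629, and -0.60 ± 0.16, adjusted p = 0.00972) ended without Stattic replicate 3 (0.0767) and without Kira8+Stattic replicate 2 (0.0523). Psmc3 was level, with 157, 137 and 153 CPM in Kira8+Stattic against 166, 138 and 138 CPM in None. Psmc6 went the other way in Kira8 alone, with 199 and 267 CPM there, 181 and 147 in Stattic and 128, 146 and 145 in Kira8+Stattic, against 123, 139.6 and 148 CPM in None. Its Kira8 change of 0.77 ± 0.17 (edgeR, adjusted p = 0.00842) was not called without Kira8 replicate 3 (0.17).

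The activators open the core's gate without ubiquitin or ATP. PA28 alpha and beta, encoded by Psme1 and Psme2, are interferon-induced partners of the immunoproteasome, Psme3 encodes the nuclear PA28 gamma, and Psme4 encodes PA200. Of 5 activator genes, 2 were called lower in Kira8 (Psme2, Psme3), 2 in Stattic (Psme1, Psme3) and 4 in Kira8+Stattic (all but Psme2b). Among all genes of at least 5 CPM the shares called lower were 16.4%, 32.1% and 33.8%. Psme3 (chr11:101316213-101323537, plus strand) had 184 and 189 CPM in Kira8, 179 and 160.3 in Stattic and 174, 166 and 164 in Kira8+Stattic, against 399, 525 and 474 CPM in None. Its highest treated library had 189 CPM and its lowest None library 399 CPM. The edgeR changes were -1.32 ± 0.16 (adjusted p = 0.000291), -1.46 ± 0.16 (adjusted p = 3.88e-05) and -1.47 ± 0.14 (adjusted p = 9.11e-06), or 2.50-fold, 2.75-fold and 2.78-fold lower, and they held whichever library was left out. With all 12 libraries the changes were -1.86 ± 0.94, -2.01 ± 0.95 and -1.49 ± 0.93 and none was called.

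Psme1 had 166 and 179 CPM in Kira8, 183 and 143 in Stattic and 166, 171 and 194 in Kira8+Stattic, against 251, 233 and 217 CPM in None. Psme2 had 76.1 and 97.5 CPM in Kira8, 107 and 90.1 in Stattic and 83.2, 86.4 and 108 in Kira8+Stattic, against 146, 130.3 and 125 CPM in None. For both, no treated library reached a None library. The changes were smaller than that of Psme3 and the calls less firm. By edgeR, Psme1 changed by -0.52 ± 0.16 in Stattic (adjusted p = 0.0229; 0.222 without Stattic replicate 3) and by -0.40 ± 0.14 in Kira8+Stattic (adjusted p = 0.0396; 0.0662 to 0.122 without any of Kira8 replicates 1 and 3, Kira8+Stattic replicates 1 and 2 and None replicates 1 and 2). Psme2 changed by -0.62 ± 0.18 in Kira8 (edgeR, adjusted p = 0.0285; 0.292, 0.065 and 0.0528 without Kira8 replicate 1, Kira8 replicate 3 and None replicate 1) and by -0.53 ± 0.16 in Kira8+Stattic (adjusted p = 0.0172; 0.0725 without Kira8+Stattic replicate 2). Psme2 and Psme2b share 789 of 794 aligned transcript bases, so reads could be split between them and both are uncertain. Their sum was 107 and 135 CPM of all counts in Kira8, 134 and 117 in Stattic and 127, 115 and 131 in Kira8+Stattic, against 211, 175 and 171 in None, which leaves the groups apart. Psme2b alone had 42.8, 35.2 and 36.8 CPM in Kira8+Stattic against 45.5, 39.1 and 38.9 CPM in None (-0.11, not called). Psme4 had 135 and 153 CPM in Kira8, 78.1 and 84.2 in Stattic and 81.0, 75.8 and 72.3 in Kira8+Stattic, against 77.8, 122 and 127 CPM in None. Its Kira8+Stattic change against Kira8 was -0.92 ± 0.20 (edgeR, adjusted p = 0.00411; 0.0525 without Kira8 replicate 3). Against None it was -0.51 ± 0.18 (adjusted p = 0.0351), a call lost without any of Kira8 replicates 1 and 3, Kira8+Stattic replicates 2 and 3 and None replicates 2 and 3 (0.0529 to 0.133).

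The chaperones of 20S assembly had the lowest medians of the groups expressed above 5 CPM: edgeR called lower 4 of 4 in Kira8 (median log2 change -1.06), 2 of 4 in Stattic (-0.78) and 2 of 4 in Kira8+Stattic (-0.85). Beside them, 16.4%, 32.1% and 33.8% of all genes of at least 5 CPM were called lower. Psmg1 and Psmg2 form the PAC1-PAC2 pair and Psmg3 and Psmg4 the PAC3-PAC4 pair that guide alpha ring formation. Psmg2 had 17.3 and 17.3 CPM in Kira8, 14.1 and 10.1 in Stattic and 18.1, 13.6 and 12.9 in Kira8+Stattic, against 39.4, 42.7 and 32.3 CPM in None. The lowest None library was well above the highest treated one, and the edgeR changes of -1.14 ± 0.22 (adjusted p = 0.00356), -1.66 ± 0.22 (adjusted p = 0.000139) and -1.36 ± 0.19 (adjusted p = 0.000148) held without any library. Psmg3 had 9.15 and 9.65 CPM in Kira8, 9.44 and 6.24 in Stattic and 7.06, 5.60 and 6.57 in Kira8+Stattic, against 21.6, 17.4 and 17.2 CPM in None, again with no overlap. By edgeR it changed by -0.997 ± 0.23 in Kira8 (adjusted p = 0.00991; 0.0975 and 0.0817 without Kira8 replicate 1 or 3), -1.26 ± 0.23 in Stattic (adjusted p = 0.00121) and -1.55 ± 0.20 in Kira8+Stattic (adjusted p = 9.43e-05). Psmg3 shares 280 exon bases with Gm26938 on the same strand.

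Psmg1 and Psmg4 were called lower in Kira8 and not in the groups with Stattic. Psmg1 had 9.86 and 10.7 CPM in Kira8, 17.9 and 18.3 in Stattic and 17.9, 16.0 and 19.2 in Kira8+Stattic, against 24.8, 22.5 and 19.6 CPM in None. The Kira8 libraries were below all others, by -1.12 ± 0.18 against None (edgeR, adjusted p = 0.00126), and Kira8+Stattic was 0.78 ± 0.18 above Kira8 (adjusted p = 0.00572; 0.0753 without Kira8 replicate 1). Psmg4 had 6.87 and 7.86 CPM in Kira8, 11.6 and 9.25 in Stattic and 10.7, 12.8 and 11.7 in Kira8+Stattic, against 15.4, 10.1 and 12.6 CPM in None. Its change of -0.78 ± 0.23 in Kira8 (edgeR, adjusted p = 0.0304) ended without Kira8 replicate 1 or 3 or None replicate 1 or 3 (0.0559 to 0.223). Of the 19S chaperones, Psmd5, which holds the base's ATPases before assembly, had 30.5 and 33.2 CPM in Kira8, 26.6 and 22.3 in Stattic and 26.3, 20.1 and 21.3 in Kira8+Stattic, against 44.1, 50.04 and 42.3 CPM in None. It fell by 0.90 ± 0.17 on the log2 scale in Stattic (edgeR, adjusted p = 0.00164) and by 1.01 ± 0.15 in Kira8+Stattic (adjusted p = 0.000253). Psmd9 was not called. Psmd10 was not called either, with 19.8, 19.7 and 22.6 CPM in Kira8+Stattic against 23.9, 19.5 and 17.6 CPM in None.

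**Figure D4:**
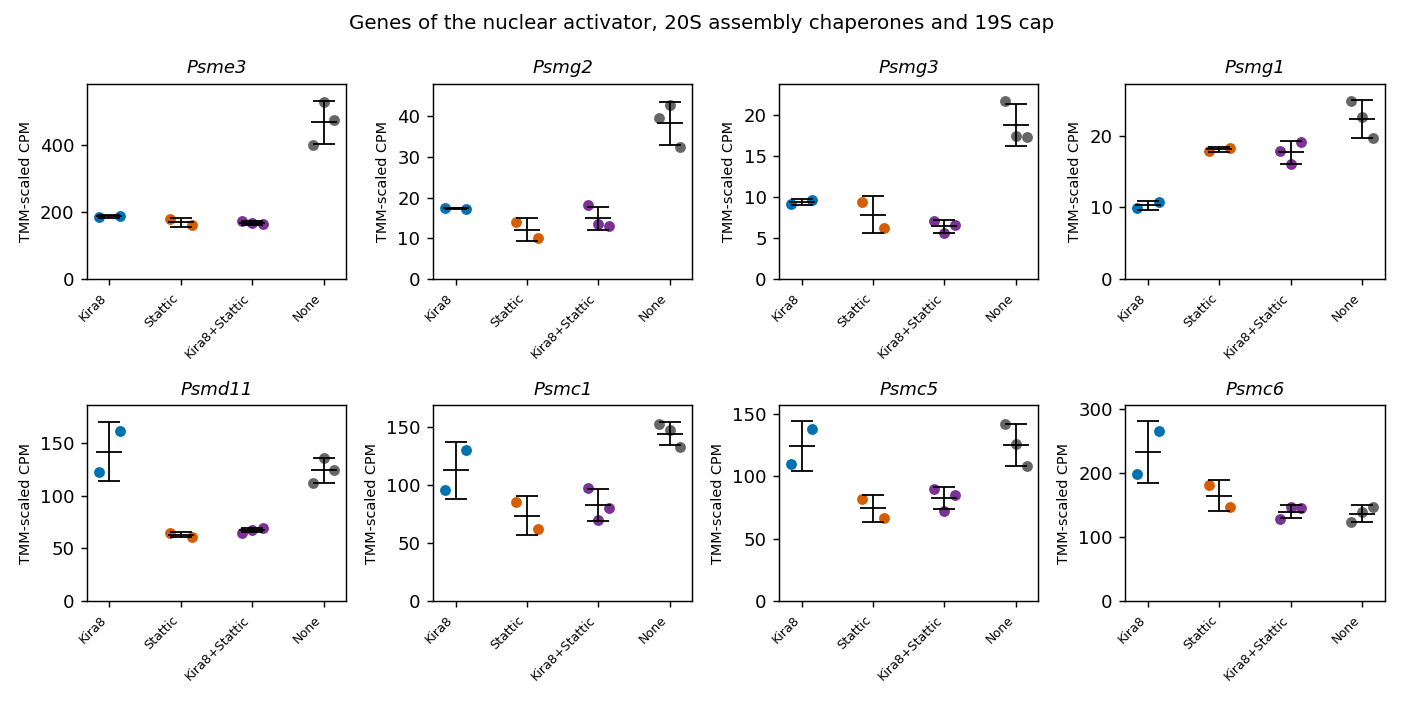
TMM-scaled CPM (vertical axis, from 0) of the nuclear activator gene Psme3, the 20S assembly chaperones Psmg2, Psmg3 and Psmg1, and the 19S genes Psmd11, Psmc1, Psmc5 and Psmc6 in each of 10 libraries, by group, with mean and SD. Psme3, Psmg2 and Psmg3 are lower in all treated groups, Psmd11 in those with Stattic, and Psmg1 mainly in Kira8.

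The remaining members were small in level or change. Psmf1, which encodes the inhibitor PI31, had 35.5 and 26.4 CPM in Stattic and 38.7, 28.02 and 34.8 in Kira8+Stattic, against 50.1, 44.9 and 45.4 CPM in None, and was called in both (edgeR, -0.60 ± 0.18, adjusted p = 0.0227, and -0.47 ± 0.16, adjusted p = 0.0363). The first call ended without Stattic replicate 3 (0.216) and the second without any of Kira8 replicates 1 and 3, Kira8+Stattic replicates 2 and 3 and any None library (0.0526 to 0.155). Psma8 had 8 and 0 counts in Kira8, 11 and 0 in Stattic and 20, 22 and 0 in Kira8+Stattic, against 22, 28 and 0 in None. Psmb11 had 2 and 0 counts in Kira8, 7 and 45 in Stattic and 15, 14 and 39 in Kira8+Stattic, against 0, 4 and 0 in None; it was called higher in both groups with Stattic, at levels below 1 CPM where a fold change depends on the prior count, and each call ended without any of Stattic replicate 3, the Kira8+Stattic libraries and None replicates 1 and 3 (adjusted p = 0.0515 to 0.364). Psmc3ip had 4.82 and 5.09 CPM in Kira8 against 9.45, 7.00 and 9.32 CPM in None, and its call there (edgeR, -0.79 ± 0.24, adjusted p = 0.0391) ended without any of Kira8 replicates 1 and 3, Kira8+Stattic replicate 2 and None replicates 1 and 3 (0.0538 to 0.226). Of the 50 members, 24 were called in none of the 6 comparisons and 4 in all 3 against None, namely Psmb10, Psme3, Psmg2 and Psmg3. The matching shares among all genes were not computed, so whether these counts are unusual was not tested.

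**Figure D5:**
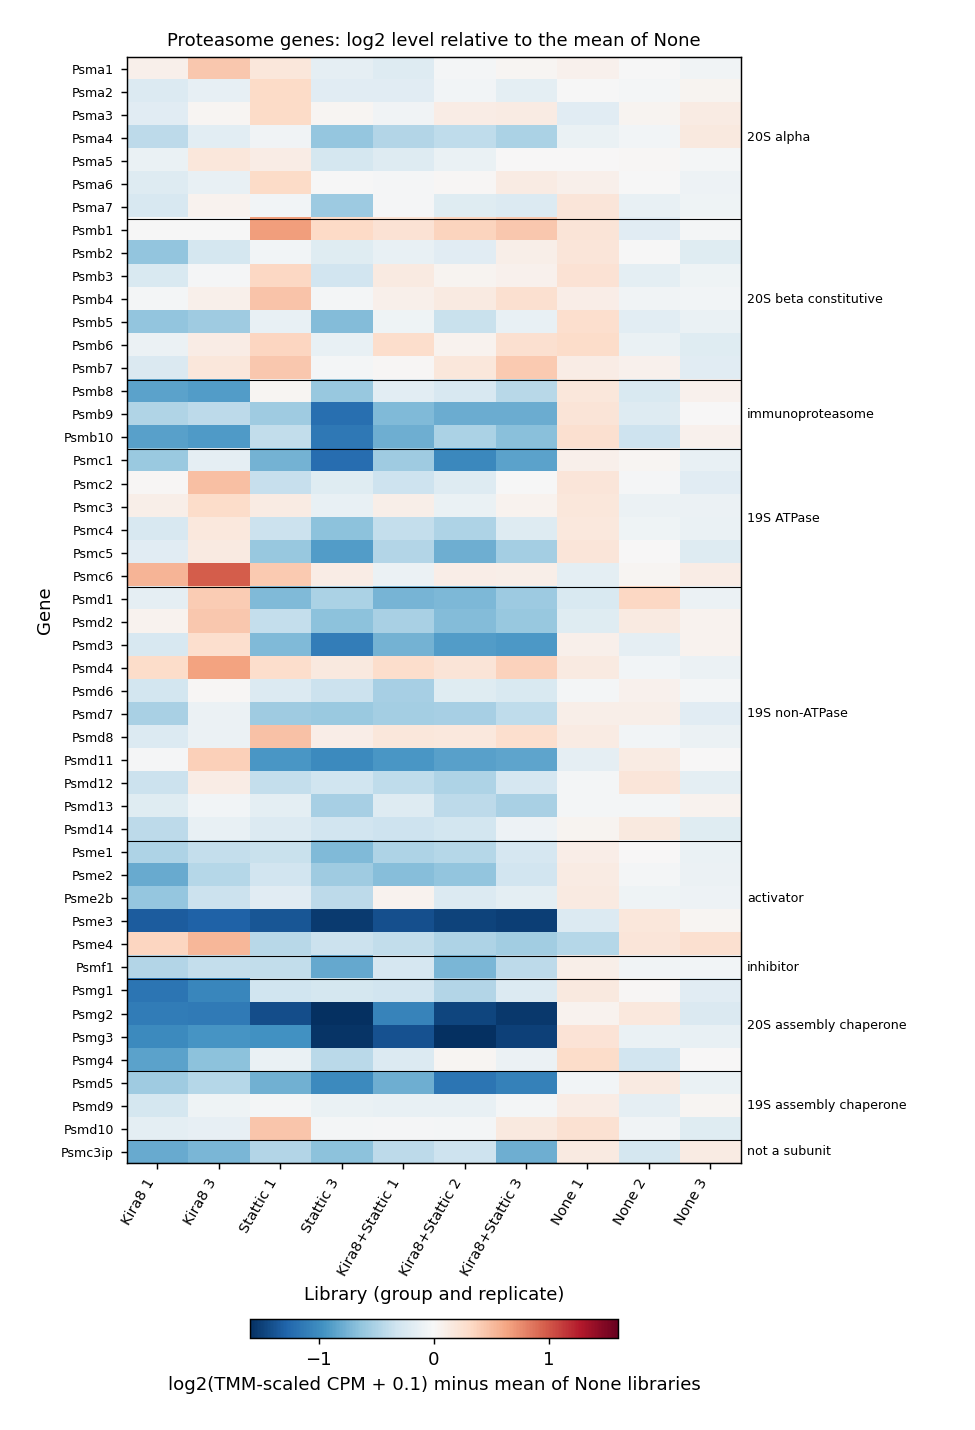
Log2 level of the proteasome genes in each of 10 libraries relative to the mean of None (colour, log2 of TMM-scaled CPM plus 0.1), grouped by role; Psma8 and Psmb11 are not drawn. Psme3, Psmg2 and Psmg3 are dark blue in every treated library, and Psmd11 and Psmd3 in those with Stattic.

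No member was called between the combination and Stattic alone. In Kira8+Stattic against Stattic, edgeR, DESeq2 and limma voom each called 0 of 50, and 0 had an unadjusted p under 0.05; among all genes tested edgeR called 0.00942% higher and 0.00471% lower. DESeq2 called 29 genes higher and 22 lower there, and limma voom called 0 higher and 1 lower. The question whether Kira8 acted differently with Stattic than without was tested as an interaction, that is, the change from Stattic to Kira8+Stattic minus the change from None to Kira8. It was higher for 3 members and lower for 1, beside 4.55% and 3.97% of all genes and 8% and 6.99% of genes of at least 5 CPM. Psme3 (1.31 ± 0.22; edgeR, adjusted p = 0.00645) fell by 1.32 on the log2 scale with Kira8 alone, and differed by -0.02 between Kira8+Stattic and Stattic. Psmg2 (1.44 ± 0.30; adjusted p = 0.0152), Psmg1 (1.09 ± 0.25; adjusted p = 0.0204) and Psmc6 (-1.002 ± 0.24; adjusted p = 0.0269) complete the list. The Psme3 call held without any library and the others did not: that of Psmg2 ended without Kira8 replicate 1 or 3 or Stattic replicate 3 (0.0704 to 0.0734), that of Psmg1 without any Kira8 or Stattic library (0.0517 to 0.111), and that of Psmc6 without Kira8 replicate 3, Stattic replicate 1 or any Kira8+Stattic library (0.054 to 0.179).

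Other genes of the pathway were read from lists, and the genes of these lists had means of at least 5 CPM. Their counts below stand beside the shares among all genes of that level. Those were 16.2% higher and 16.4% lower in Kira8, 23.4% and 32.1% in Stattic, and 24.1% and 33.8% in Kira8+Stattic. Of 16 genes of ubiquitin and the p97 segregase, 5 were called higher and 1 lower in Kira8, 6 and 3 in Stattic and 6 and 3 in Kira8+Stattic. Ubb, a polyubiquitin gene, was 3.78-fold higher in Kira8+Stattic than in None by edgeR (1.92 ± 0.21, adjusted p = 2.39e-05). The conjugating enzymes differed, with Ube2d1 lower (-1.29 ± 0.17) and Ube2d2a higher (0.92 ± 0.13) in Kira8+Stattic.

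Of 17 accessory and assembly genes, 2 were higher and 1 lower in Kira8, 5 and 5 in Stattic and 5 and 5 in Kira8+Stattic. Zfand2a, the arsenite-inducible adaptor AIRAP, had 56.7 and 81.8 CPM in Kira8, 245 and 294 in Stattic and 232, 395 and 399 in Kira8+Stattic, against 20.2, 23.1 and 21.8 CPM in None. The groups with Stattic lay highest and Kira8 between them and None; Kira8+Stattic was 15.8-fold higher than None by edgeR (3.98 ± 0.24, adjusted p = 5.21e-07). Zfand5, a 26S activator, was 4.77-fold higher (2.25 ± 0.19). Midn, which brings proteins to the proteasome without ubiquitin, was also higher (1.26 ± 0.20), and the ubiquitin shuttle gene Ubqln4 was lower (-1.62 ± 0.16). Pomp, the chaperone that matures the beta ring, was not called in any of the 3 comparisons.

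Of 10 genes around NFE2L1, the factor that raises proteasome gene transcription when the proteasome is inhibited, 3 were higher and 1 lower in Kira8, 6 and 1 in Stattic and 5 and 1 in Kira8+Stattic. Nfe2l1 itself was not called (0.16 ± 0.15 in Kira8+Stattic). Its relative Nfe2l2 was higher (1.52 ± 0.14), as were the small Maf partners Maff (3.02 ± 0.16) and Mafk (1.71 ± 0.15) and the repressor gene Bach1 (2.15 ± 0.31). Mafk was lower in Kira8 (-0.60 ± 0.17; edgeR, adjusted p = 0.0246), a call that ended without Kira8 replicate 1 or 3 or None replicate 2 (0.0558 to 0.219). Of 14 genes of interferon signalling and class I presentation, 3 were lower in Kira8, 10 in Stattic and 11 in Kira8+Stattic. Erap1, which trims peptides for class I, changed by -2.42 ± 0.19 in Kira8+Stattic. The interferon-response factor Irf1 changed by -1.75 ± 0.15, and Nlrc5, the class I transactivator, by -2.20 ± 0.25. In Kira8, where Psmb8 and Psmb10 fell, Irf1 (0.19) and Nlrc5 (0.17) were not called.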

How the data were processed

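The authors deposited unnormalised counts, 1 whole number for each of 55401 Ensembl genes in each of 12 RNA-seq libraries. The build was mm10, per the submitters' processing notes. Not given in the sources used here are the aligner, the counter, strand use and the handling of multiply mapping reads. Per the labels' protocols RNA was extracted with Trizol. Columns were matched to samples by title, and symbols, types and positions come from the GENCODE annotation of mm10 (55141 of 55401 identifiers matched). Upstream sequences come from RefSeq (GRCm38.p6).

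Total counts were 9.28 to 85.9 M (megacounts) per library. The lowest chi-square per gene between replicates of a group was 30.8, far above sampling noise, and all libraries were kept as separate. Genes were filtered with filterByExpr, scaled by TMM and tested with edgeR 4.0.16 (quasi-likelihood, R 4.3.3) in a single fit of 10 libraries with a coefficient per group, with the Benjamini-Hochberg adjustment over 21239 genes. SE is the log2 change divided by the square root of F, and 95% intervals use the fitted degrees of freedom. Fits of all 12 libraries, DESeq2 1.42.0, limma voom 3.58.1, RLE factors, library size alone, no filter, the replicate number as a block, and leaving out each library were alternatives. Ratios of counts (0.5 added) were compared by exact permutation tests. The edgeR step was tested on simulated data.

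Values in every library were fixed by rule for Psmb5 to Psmb10, Psme1, Psme2 and the member with the largest and the smallest change in Kira8+Stattic against None in each structural group, and 4 genes by adjusted p from each list, some of which are not reported here. Other genes named, among them Psmg1, Psmg2, Psmg4, Psmc5, Psmc6, Psmd1, Psmd2, Psmd3, Psmd5, Psme4, Psmf1, Psmc3ip and Pomp, were chosen after their values were seen. The members and lists were chosen with earlier results of these data known.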

Additional observations from a re-analysis of the deposited data

Results flagged for a closer look

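For 4 of the 50 proteasome genes the effect of Kira8 was called different between cells with and without Stattic, by a test of the difference itself (edgeR quasi-likelihood, 10 libraries). Among all genes of at least 5 CPM, this test called 8% higher and 6.99% lower. Stated as the change from Stattic to Kira8+Stattic less the change from None to Kira8, the difference was 1.31 ± 0.22 (SE, log2) for Psme3 (adjusted p = 0.00645), 1.44 ± 0.30 for Psmg2 (adjusted p = 0.0152), 1.09 ± 0.25 for Psmg1 (adjusted p = 0.0204) and -1.002 ± 0.24 for Psmc6 (adjusted p = 0.0269). In Psme3 and Psmg2 both inhibitors alone lowered the gene to about the level of the combination. In Psmg1 and Psmc6 the Kira8 libraries stood apart from the other 3 groups in level, low in Psmg1 and high in Psmc6. With all 12 libraries these differences were 2.38, 2.22, 1.49 and -0.01 and none was called. In the 10 libraries the Psme3 call held whichever library was left out. Those of Psmg2, Psmg1 and Psmc6 each ended without some single libraries.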

How the results depend on the processing

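With all 12 libraries 0 members were called in any comparison, and every one of 102 single gene changes followed (members and list genes) lost its call. In the 10 libraries no single change reversed under any alternative; the calls lost were 11 with no filter, 5 with the replicate block, 4 with library size alone, 1 with RLE factors and 0 with DESeq2 or limma voom, and 6 with quality weights on 12 libraries. Counts of members moved as follows. DESeq2 called 2 higher and 14 lower in Kira8 and 2 higher in Kira8+Stattic, each against None, 5 higher in Kira8+Stattic against Kira8 and 8 higher in the interaction, and limma voom called 2 higher in Kira8. Library size alone and no filter each gave 1 higher in Stattic, 0 in Kira8+Stattic and 1 in Kira8+Stattic against Kira8. Quality weights gave 2 higher in Kira8+Stattic, 6 higher in Kira8+Stattic against Kira8 and 0 lower in the interaction.

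The replicate number used as a block gave 0 higher in Stattic and in Kira8+Stattic, 5 higher in the interaction and 10, 15 and 18 lower against None in Kira8, Stattic and Kira8+Stattic. Same-numbered libraries deviated together only weakly (correlations of -0.05 to 0.26), so the numbers were not taken to pair samples.

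Leaving out each library in turn gave 0 to 2 higher and 3 to 10 lower in Kira8, 0 to 1 and 7 to 17 in Stattic, 0 to 1 and 11 to 19 in Kira8+Stattic, 0 to 3 and 1 to 8 in Kira8+Stattic against Kira8, and 1 to 5 and 0 to 1 in the interaction. With against without Stattic, the log2 ratio differed by -0.88 to -0.70 for Psmb9/Psmb6 and by -0.75 to -0.41 for Psmb10/Psmb7, and Psmb9/Psmb6 by -0.68 with all 12 libraries. The Psmb8/Psmb5 difference of Kira8+Stattic against None, not past the threshold, ran from -0.21 to 0.0031, the last without Kira8+Stattic replicate 3. The cause of these shifts was not tested. With 2 libraries in Kira8 and in Stattic, a single library decides many calls, and where a group is left with 1 library it is assumed to vary like the other groups. Psma8 and Psmb11, under 1 CPM, are at the limit of this depth.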
